A study of Mus musculus with 160 samples.

Results

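Day-21 induced haematopoietic progenitor cells (iHPCs) with little Gata2 RNA were compared with day-17 iHPCs from the same maturation culture scheme. A day-21 cell was a member when its Gata2 level was below 31 TPM (a level per transcript length that sums to nearly the same total in every cell), which is 5 on the log2(TPM + 1) scale. This rule kept 34 of the 56 day-21 cells, and all 18 day-17 cells were used, so that 52 of the 160 cells of the study entered the comparison. The cells were chosen by their own Gata2 values, so the Gata2 level describes the choice and is no result. The highest Gata2 values inside the rule were 9.18, 4.95 and 4.10 TPM, and the lowest values outside it were 66.0, 71.0 and 90.7 TPM, so no day-21 cell lay near the threshold. The other 22 day-21 cells, called Gata2-high here, had a median of 450 TPM. All 18 day-17 cells were also below 31 TPM, with a highest value of 6.78 TPM.

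Single-cell RNA-seq was made on iHECs (induced haemogenic endothelial cells, 65 cells) and on iHPCs at day 14 (21 cells), day 17 and day 21. Every group derived from mouse pluripotent cells that carry Runx1 and Hoxa9, joined by a p2a peptide, under doxycycline control in the Rosa26 locus on a C57BL/6 background; doxycycline was also present in the maturation medium of both groups. iHECs were matured on OP9-DL1, a stromal line that displays a Notch ligand, with IL3, Flt3L and SCF, and the day-17 and day-21 cells were taken after 6 and 10 days of that maturation. Day-17 cells were sorted as CD45+ cells that lacked lineage proteins, among them the T-cell proteins CD2, CD3, CD4 and CD8 and markers of red cells, granulocytes, macrophages and mast cells. Day-21 cells were sorted as Ter119-CD45+c-kit+CD127+, with no gate on CD3 or on the other lineage proteins. Time and gate therefore changed together, and their parts in any difference cannot be told apart. The labels give an ESC or iPSC origin without saying which cell came from which, and they name no culture or animal. Each group therefore counted as 1 sample, no test was made, and each spread below is the SD between cells.

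Early T-lineage progenitors reach the thymus with the help of chemokine receptors such as Ccr9, depend on the cytokine receptors Flt3 and Il7r, and start the T-cell programme when Notch signals switch on the factor Tcf7. Components of the T-cell receptor complex (the CD3 chains) and of receptor gene assembly (Rag1, Rag2, the pre-receptor chain Ptcra) come on during that programme. Gata2 is a factor of stem and early progenitor cells and of mast cells, which store proteases such as carboxypeptidase A3 (Cpa3) and the chymases (Mcpt genes, Cma1) in granules.

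Day-21 libraries held fewer genes than day-17 libraries. Genes above 1 TPM numbered 6536 to 9658 per day-17 cell (median 8101) and 3188 to 7852 per Gata2-low cell (median 6769.5), and 15 of the 34 Gata2-low cells were below the lowest day-17 cell. TPM keeps no read depth, so depth is unknown. The factor gene Tbp, used by nearly every cell type, was listed at 0 in 6 of the 34 Gata2-low cells and in none of the day-17 cells, so a value of 0 is given below only as listed at 0. Of the 18 day-17 libraries, 4 stood apart. Cells 1 and 18 held the myeloid genes Mpo (5724.5 and 553 TPM) and Lyz2 (459 and 6494 TPM), with Il7r listed at 0. Cells 9 and 15 held the epithelial keratin gene Krt8 at 2306 and 1447 TPM, and in cell 9 the CD45 gene Ptprc stood at 0.28 TPM in spite of the CD45+ gate. The other 14 day-17 cells all had Ptprc at 46.1 TPM or more. Day-17 cells 10 and 11 correlated at r = 0.983 across the genes compared, against 0.820 for the next pair of day-17 cells, so they were also averaged to 1 cell as an alternative. Y-linked transcripts (Ddx3y, Eif2s3y, Uty or Kdm5d above 1 TPM) were found in 6 of the 18 day-17 cells and in 0 of the 34 Gata2-low cells, which allows a share of up to 8.82%. Exact binomial intervals and such limits cover counting error only.

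Flt3 and Il7r were detected in most cells at both times, and their ranges overlapped. Flt3, the receptor of Flt3L, ranged from 0.10 to 167 TPM at day 17 (median 57) and from 0 to 182 TPM in Gata2-low cells (median 44.6). Flt3 exceeded 1 TPM in 16 of 18 cells at day 17 (88.9%, 95% exact Clopper-Pearson interval 65.3 to 98.6%) and in 31 of 34 Gata2-low cells (91.2%, 76.3 to 98.1%), so the groups overlapped over nearly their whole range. Its mean on the log2(TPM + 1) scale was 5.21 ± 2.16 (SD, n = 18 cells) at day 17 and 5.03 ± 1.85 (SD, n = 34 cells) in Gata2-low cells. Il7r, which encodes CD127, ranged from 0 to 105 TPM at day 17 (median 39.7) and from 0.19 to 233 TPM in Gata2-low cells (median 50.2). Cells above 1 TPM numbered 15 of 18 and 33 of 34. CD127 and c-kit were gated at day 21 and not at day 17, so gate and time cannot be told apart for the Il7r and Kit shares. All 14 day-17 cells outside the 4 that stood apart had Il7r between 19.2 and 105 TPM and Flt3 between 28.1 and 167 TPM. Those 4 were set apart after the data were seen, and they include every day-17 cell without Il7r above 1 TPM. Among the Gata2-high cells of the same sort, Il7r was above 1 TPM in 8 of 22 cells and Flt3 in 2 of 22.

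Ccr9 and Tcf7 were detected in most cells of both groups, with higher medians in Gata2-low cells. Ccr9, the receptor of the thymic chemokine Ccl25, had a lowest value of 0 in both groups, a median of 10.7 and a highest value of 83.2 TPM at day 17, and a median of 79.0 and a highest value of 302 TPM in Gata2-low cells. Ccr9 exceeded 1 TPM in 11 of 18 cells at day 17 (61.1%, 35.7 to 82.7%) and 29 of 34 Gata2-low cells (85.3%, 68.9 to 95%). Tcf7, the first factor of the T-cell programme downstream of Notch, had a median of 17.3 TPM at day 17 (0 to 71.3 TPM) and of 31.4 TPM in Gata2-low cells (0 to 372 TPM). Tcf7 exceeded 1 TPM in 13 of 18 (72.2%, 46.5 to 90.3%) and 26 of 34 cells (76.5%, 58.8 to 89.3%), and the groups overlapped.

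A gene was compared where over 10 of the 52 cells exceeded 1 TPM, which left 9472 genes. Their median difference of means (Gata2-low minus day 17) was -0.76 on the log2 scale. The day-21 libraries also held fewer genes, and the part of that in the shift was not tested. Differences are therefore given as centred differences, that is, less this median, and a gene was called past the fold when its centred difference was 2 or more in size. By this rule 119 genes were higher in Gata2-low cells (1.26% of those compared) and 141 were lower (1.49%). Without centring the same threshold gave 44 higher and 791 lower genes, so the balance of directions depends on the centring. No gene compared had groups that did not overlap. A gene listed at 0 in every cell of both groups has a centred difference of 0.76, so lists with many silent members sit above 0. A gene detected in few cells of 1 group was compared through the other group, so its direction, higher or lower, was nearly fixed. Among the markers, the centred differences were 0.57 for Flt3, 1.56 for Il7r, 1.66 for Tcf7, 3.13 for Ccr9, 5.90 for Cd3g and 7.62 for Gzma. Without day-17 cells 1, 9, 15 and 18 those of Flt3 and Il7r were -0.40 and 0.49, and that of Ccr9 was 2.36.

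**Figure D1:**
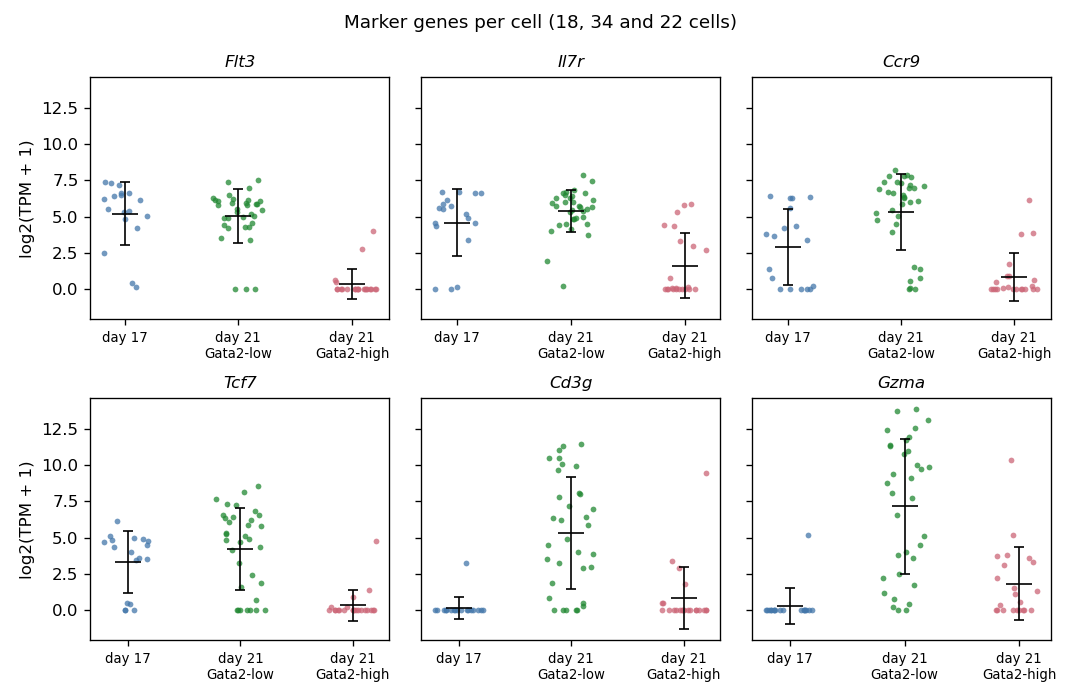
Level of the 6 marker genes on the log2(TPM + 1) scale (vertical axes) in 18 day-17 cells, 34 Gata2-low and 22 Gata2-high day-21 cells (horizontal positions; points are cells, bars are mean and SD between cells). Flt3 and Il7r overlap between the first 2 groups, with Il7r reaching 105 TPM at day 17 and 233 TPM in Gata2-low cells, whereas Cd3g and Gzma lie near 0 in all but 1 day-17 cell each and spread over the whole axis in Gata2-low cells.

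Cd3g came after Gzma and Cpa3 in the order of centred differences. It encodes the gamma chain of the CD3 complex and lies at chr9:44969572-44980431 (GRCm38, minus strand), in a cluster with Cd3d and Cd3e that spans 40056 bases. At day 17 it was above 1 TPM in 1 of 18 cells, at 8.65 TPM (5.56%, 0.141 to 27.3%). In Gata2-low cells it ranged from 0 to 2773 TPM with a median of 43.3 TPM and was above 1 TPM in 26 of 34 cells (76.5%, 58.8 to 89.3%). The mean was 0.18 ± 0.77 at day 17 and 5.32 ± 3.88 in Gata2-low cells on the log2 scale. In the Gata2-high cells 4 of 22 were above 1 TPM. The day-17 sort removed cells with CD3 or CD2 protein and the day-21 sort did not, so gate and time cannot be told apart for this gene.

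The other CD3 chains did not follow Cd3g to the same level. Cd3d was above 1 TPM in 2 of 18 and 7 of 34 cells, Cd3e in 0 of 18 and 8 of 34, and Cd247, the zeta chain, in 0 of 18 and 5 of 34. Of the 26 Gata2-low cells with Cd3g, 18 lacked Cd3e above 1 TPM and 20 lacked Cd3d. Only 1 of the 34 cells had all 4 chains above 1 TPM, 14 had exactly 1 of them and 7 had none. Cd3g and Cd3d are read in opposite directions from starts 1355 bases apart, and the 250 bases before each start (RefSeq, GRCm38.p6, 5′ to 3′ on the gene's strand) are shown because these neighbours differ in level. Capitals mark E-boxes (CANNTG, the same on both strands), the letters that E proteins such as Tcf3 bind.
Cd3g, chr9:44980432-44980681, minus strand: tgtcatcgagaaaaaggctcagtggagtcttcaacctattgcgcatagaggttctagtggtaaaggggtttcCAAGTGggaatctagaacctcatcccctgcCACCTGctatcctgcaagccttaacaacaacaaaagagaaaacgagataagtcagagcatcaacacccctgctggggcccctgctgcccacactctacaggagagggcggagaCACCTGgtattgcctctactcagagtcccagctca
Cd3d, chr9:44981536-44981785, plus strand: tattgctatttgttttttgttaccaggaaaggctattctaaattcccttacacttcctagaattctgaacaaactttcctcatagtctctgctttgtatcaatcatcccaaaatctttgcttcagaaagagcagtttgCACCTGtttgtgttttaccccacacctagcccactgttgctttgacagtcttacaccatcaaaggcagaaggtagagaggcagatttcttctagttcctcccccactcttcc
The Cd3g window held 3 E-boxes and the Cd3d window 1. The letters occur by themselves in 66.0% of 27025 RefSeq promoter windows of this length, so their presence describes the sequence and nothing more.

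The remaining genes of the T-cell receptor and its assembly ranged from past the fold as higher to above 1 TPM in no cell of either group. The list of 13 CD3, pre-receptor and Rag genes had a mean of 1.59 ± 0.78 at day 17 and 3.03 ± 1.09 in Gata2-low cells on the log2 scale. Of its 13 members 6 were compared, and 4 of these were past the fold, all higher (Cd3g, Lat, Rag2 and Rag1), where 1.26% of all genes were. Cd3g and Rag1 were each above 1 TPM in 1 of 18 day-17 cells. Both were compared through their detection in Gata2-low cells, so their direction was nearly fixed and the count cannot be read against that share. Lat had a day-17 median of 0 TPM, so it too passed the filter only with its Gata2-low cells. Lck, the kinase that acts on the CD3 chains, was already above 1 TPM in 16 of 18 day-17 cells, with a mean of 8.03 against 9.25 in Gata2-low cells. Ptcra was above 1 TPM in 13 of 18 and 28 of 34 cells. Rag2, a subunit of the recombinase, had means of 4.49 and 5.95 and was above 1 TPM in 15 of 18 and 33 of 34 cells, whereas its partner Rag1 was above 1 TPM in 1 of 18 and 14 of 34. Dntt, which adds bases at the joins, was above 1 TPM in no cell of either group. Bcl11b, the factor of T-lineage commitment, was above 1 TPM in 0 of 18 and 1 of 34 cells.

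Gzma had the largest centred difference of all genes compared. It encodes the protease granzyme A of killer cells and lies at chr13:113093825-113100981 (GRCm38, minus strand). At day 17 it was above 1 TPM in 1 of 18 cells, at 35.8 TPM. In Gata2-low cells it ranged from 0 to 14617 TPM with a median of 351 TPM and was above 1 TPM in 29 of 34 cells (85.3%, 68.9 to 95%). The mean was 0.29 ± 1.23 at day 17 and 7.15 ± 4.64 in Gata2-low cells. Gata2-low cells thus ranged from none to very high levels, and the groups overlapped at the lower end.

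Few other killer-cell genes went with Gzma. Of the list of 16 cytotoxic and natural killer genes 5 were compared, and Gzma, Gzmb and Nkg7 were past the fold, all higher, where 1.26% of all genes were. Gzma was above 1 TPM in 1 of 18 day-17 cells, and the day-17 mean of Gzmb was 0.34 TPM. Both were compared through their detection in Gata2-low cells, so their direction was nearly fixed and the count cannot be read against that share. Nkg7, a granule membrane protein, was above 1 TPM in 12 of 18 day-17 and 30 of 34 Gata2-low cells, with means of 3.42 and 6.67. The defining natural killer genes were at or near 0: Ncr1, Klrk1, Klrb1c, Tbx21, Xcl1 and Eomes were above 1 TPM in 0 of 34 Gata2-low cells, which allows a share of up to 8.82%, and Klrd1 and Il2rb in 1 of 34 each. The pore protein gene Prf1 was above 1 TPM in 3 of 18 day-17 and 1 of 34 Gata2-low cells.

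The markers were detected together in many Gata2-low cells. All 6 were above 1 TPM in 16 of 34 Gata2-low cells, in 0 of 18 day-17 cells and in 0 of 22 Gata2-high cells. Flt3, Il7r, Ccr9 and Tcf7 together were above 1 TPM in 9 of 18 day-17 and 21 of 34 Gata2-low cells, and Flt3 with Il7r in 15 and 30. Cd3g and Gzma were above 1 TPM together in 24 of 34 Gata2-low cells, 5 cells had Gzma alone of the pair and 2 had Cd3g alone. No Gata2-low cell had fewer than 3 of the 6 markers. Cd3g, Gzma, Flt3 and Il7r were above 1 TPM together in 20 of 34 cells. These counts depend on the threshold: with Cd3g and Gzma counted at 1% of their highest day-21 value or more (27.7 and 146 TPM), a level chosen after the data were seen, 14 cells had both, and 13 of them also had Flt3 and Il7r above 1 TPM.

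Cd3g and Gzma were highest where fewest genes were detected. In the 11 Gata2-low cells with fewer than 6000 genes above 1 TPM, Gzma had a median of 1998 TPM (3.74 to 14617) and Cd3g of 259 TPM (0.25 to 2773). In the other 23 cells the medians were 21.5 TPM (0 to 5844) and 15.5 TPM (0 to 1455). Flt3 went the other way, with a median of 36.1 TPM in the 11 cells and 54.9 TPM in the 23. Lat and Id2 differed less between these cells, with medians of 172 and 144 TPM for Lat and of 190 and 148 TPM for Id2. With the 23 cells alone the centred differences to day 17 were 5.81 for Gzma and 4.53 for Cd3g, still past the fold. The part of library complexity in these levels was not tested.

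The 12 genes with the largest centred differences upward were Gzma, Cpa3, Cd3g, Gzmb, Akr1c13, Lat, Ly6d, Mcpt4, Akr1c12, Kcne3, Ifitm1 and Mcpt1. Lat, the adaptor that links the T-cell receptor and the mast cell IgE receptor to downstream signals, ranged from 0 to 85.4 TPM at day 17 (median 0) and from 0 to 576 TPM in Gata2-low cells (median 145), with a centred difference of 5.54. Ly6d, a surface protein that marks early lymphoid progenitors, was above 1 TPM in 6 of 18 and 29 of 34 cells, with medians of 0 and 208 TPM and a centred difference of 5.38. Kcne3, a potassium channel subunit, was above 1 TPM in 6 of 18 and 29 of 34 cells. Ifitm1, an interferon-inducible membrane protein, was above 1 TPM in every cell of both groups, with medians of 257 and 3076 TPM. The aldo-keto reductase genes Akr1c12 and Akr1c13 are close copies on chromosome 13, and how reads were divided between them is uncertain. In all 12 genes the ranges of the groups overlapped.

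**Figure D2:**
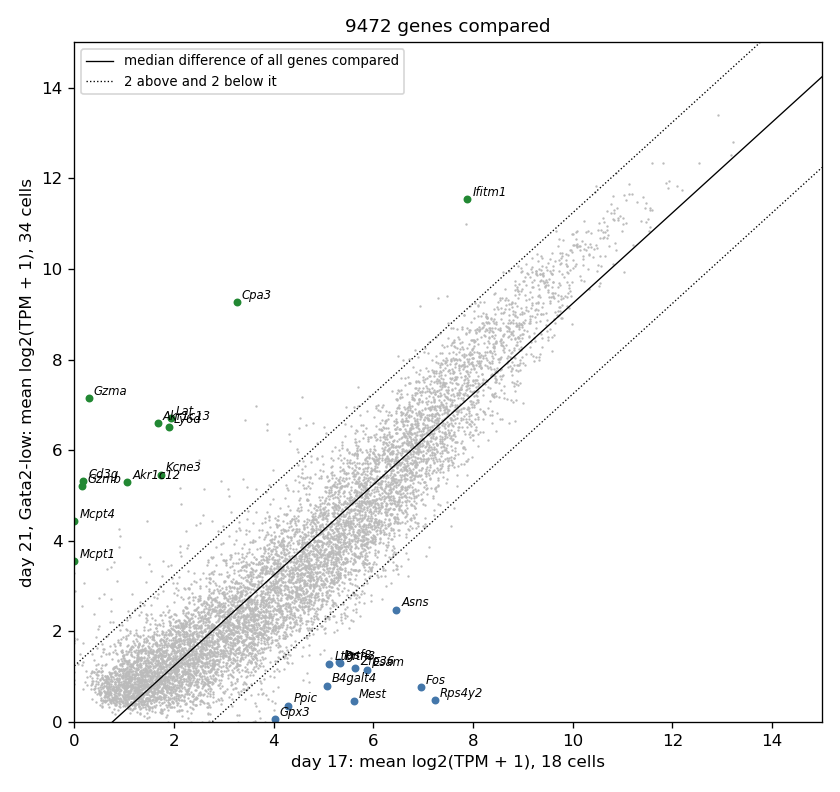
Mean log2(TPM + 1) of 9472 genes in 18 day-17 cells (horizontal axis) and 34 Gata2-low cells (vertical axis), with the median difference of -0.76 as a solid line and 2 above and below it dotted. Named points are the 12 largest rises (green) and 12 largest falls (blue), and most of the rises lie at the left edge, where day-17 means were below 2.

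Some mast cell genes were above 1 TPM in most Gata2-low cells, at a small fraction of their level in Gata2-high cells. Of the list of 14 mast cell and basophil genes 7 were compared, and 6 were past the fold, all higher (Cpa3, Mcpt4, Mcpt1, Cma1, Hdc and Mcpt2), where 1.26% of all genes were. Mcpt4, Mcpt1, Mcpt2 and Cma1 had a mean of 0 TPM at day 17. They were compared only through their detection in Gata2-low cells and could only come out higher. The count therefore cannot be read against that share. Mcpt8, a basophil protease, and Ms4a2, the IgE receptor beta chain, were above 1 TPM in 12 and 2 of 34 Gata2-low cells. Mcpt4 was listed at 0 in all 18 day-17 cells, ranged from 0 to 427 TPM in Gata2-low cells (median 19.98) and from 350 to 45517 TPM in Gata2-high cells (median 15876). The mean TPM in Gata2-low cells was 0.341% of that in Gata2-high cells for Mcpt4, 0.237% for Mcpt1, 0.313% for Mcpt2, 0.201% for Cma1, 0.235% for Mcpt8 and 0.186% for Ms4a2. It was 0.837% for the granzyme B gene Gzmb and 0.732% for the histamine enzyme gene Hdc, so all 8 lay below 1%. Fcer1a, Tpsab1 and Tpsb2, also mast cell genes, were above 1 TPM in no Gata2-low cell. The shares of Mcpt4, Mcpt1, Mcpt2, Cma1, Mcpt8 and Ms4a2 lie within a narrow range, and whether RNA of Gata2-high cells reached these libraries was not tested. The day-17 sort also removed cells with the IgE receptor protein and the day-21 sort did not, so gate and time cannot be told apart for these genes either.

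Cpa3 and several others stood well above that range. Cpa3 was above 1 TPM in all 34 Gata2-low cells, from 19.4 to 4630 TPM (median 868), and in 11 of 18 day-17 cells, up to 139 TPM. Its mean in Gata2-low cells was 10.2% of that in Gata2-high cells, and the corresponding shares were 20.2% for Lat, 25.6% for Akr1c13, 10.3% for Akr1c12, 28.8% for Fcer1g, the shared gamma chain of IgE and IgG receptors, and 56.3% for Ifitm1. In the other direction, the mean of Gata2-high cells was 3.08% of that of Gata2-low cells for Gzma, 7.52% for Cd3g, 1.94% for Flt3 and 0.168% for Ptcra.

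**Figure D3:**
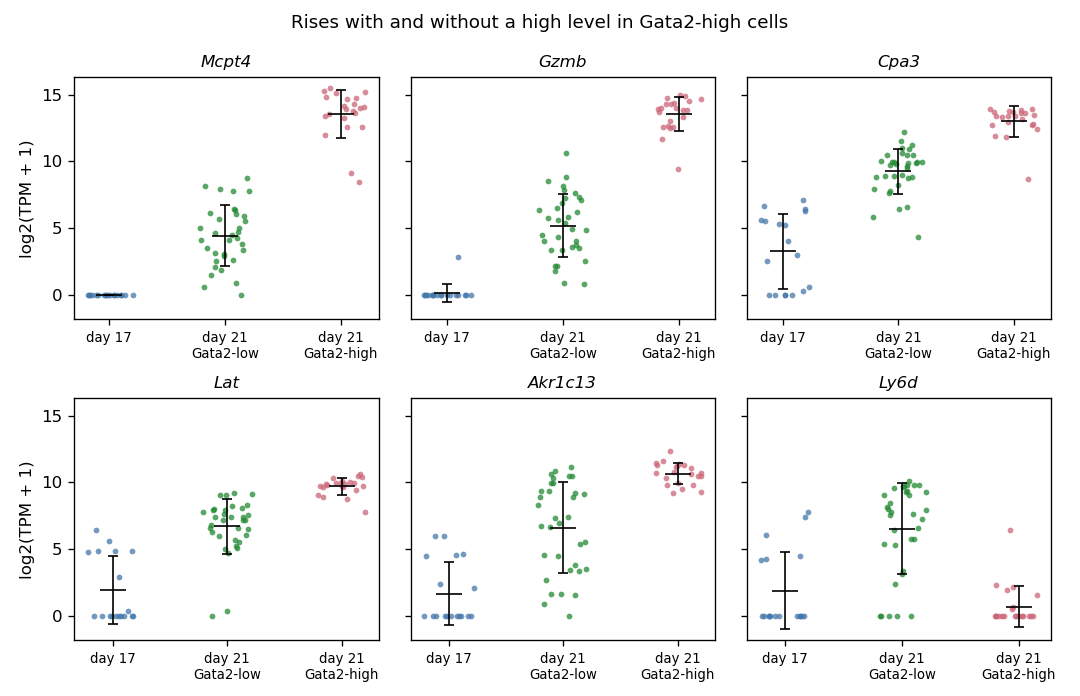
Level of 6 genes with large rises on the log2(TPM + 1) scale (vertical axes) in 18 day-17, 34 Gata2-low and 22 Gata2-high cells (horizontal positions; points are cells, bars are mean and SD between cells). Mcpt4 and Gzmb lie far below the Gata2-high cells, Cpa3, Lat and Akr1c13 lie closer to them, and Ly6d was highest in Gata2-low cells.

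Leaving out the Gata2-high cells changed which genes led the comparison with day 17. With all 56 day-21 cells the 12 largest rises were Gzmb, Mcpt4, Cpa3, Mcpt1, Cma1, Akr1c13, Akr1c12, Lat, Lgals7, Cyp11a1, Hdc and Gzma, of which 8 were also among the 12 with Gata2-low cells. Both comparisons share the same day-17 cells. The centred difference of Cyp11a1, an enzyme of steroid synthesis, was 5.63 with all day-21 cells and 2.54 with Gata2-low cells. For Lgals7, a galectin gene, the values were 6.07 and 3.71. For Gzmb they were 9.03 and 5.80, for Gzma 5.49 and 7.62, and for Cd3g 4.10 and 5.90. For Ccr9 they were 1.34 and 3.13, for Il7r 0.03 and 1.56, for Tcf7 0.09 and 1.66, and for Flt3 -1.31 and 0.57. Each of the 6 markers had a lower centred difference with all day-21 cells than with Gata2-low cells.

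Fos and Zfp36, members of the immediate early list, were among the 12 genes with the largest falls. Fos, an immediate early gene that cells switch on within minutes of a stimulus, ranged from 1.19 to 1008 TPM at day 17 (median 260) and from 0 to 97.7 TPM in Gata2-low cells (median 0). Fos exceeded 1 TPM in all 18 day-17 and 5 of 34 Gata2-low cells (14.7%, 4.95 to 31.1%), with a centred difference of -5.42. Zfp36, an RNA-binding protein that shortens the life of cytokine transcripts, was above 1 TPM in 17 of 18 and 11 of 34 cells, with medians of 64.8 and 0 TPM and a centred difference of -3.68. In Gata2-high cells Fos was above 1 TPM in 10 of 22 cells and Zfp36 in 11 of 22.

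Immediate early genes were not lower to an equal degree. Of the 16 genes on the list 11 were compared, and 10 of these had a negative centred difference. Only Fos and Zfp36 were past the fold, against 1.49% of all genes in that direction. Fos was compared through its detection at day 17, so its direction was nearly fixed and the count cannot be read against that share. The median of the compared members was -1.22, where that of all genes is 0 by construction. Btg2, Nr4a1 and Klf6 stood at -1.77, -1.55 and -1.46, Junb and Jun at -1.22 and -1.19, and Ier2 and Jund at -0.26 and -0.38, whereas Ier3 stood at 1.22. The 250 bases before the start of Fos (RefSeq, GRCm38.p6) are shown because Fos led the list, with TGACG, the core of the cAMP response element, in capitals.
Fos, chr12:85473640-85473889, plus strand: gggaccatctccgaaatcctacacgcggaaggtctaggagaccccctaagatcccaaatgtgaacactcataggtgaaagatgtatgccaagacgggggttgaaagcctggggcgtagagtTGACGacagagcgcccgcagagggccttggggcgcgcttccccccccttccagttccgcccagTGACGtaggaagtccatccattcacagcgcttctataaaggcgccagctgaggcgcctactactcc
The list had promoter windows for 14 of its 16 genes. TGACG, searched on both strands, occurred in 8 of these 14 and in 17.9% of all 27025 windows. The AP-1 letters TGANTCA, the same on both strands, occurred in 0 of the 14 and in 6.87% of all windows. These letters are counts in the window and say nothing about binding.

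Several other falls were of genes that were very high in a few day-17 cells. Mest, an imprinted gene of embryonic tissue, stood at 4421 and 3682.5 TPM in cells 9 and 15, and between 6.86 and 386 TPM in the 14 cells that did not stand apart, whose median was 0.706% of the highest day-17 value. In Gata2-low cells it ranged from 0 to 56.6 TPM and was above 1 TPM in 4 of 34. Ppic, a prolyl isomerase, and Gpx3, a secreted glutathione peroxidase, had medians of 0.412% and 0.299% of their highest day-17 value in those 14 cells. For Krt8, which is not a blood cell gene, that share was 0.361%, and yet Krt8 was above 1 TPM in all 14 cells. Without day-17 cells 1, 9, 15 and 18 the centred differences were -3.66 for Mest, -1.94 for Ppic and -1.87 for Gpx3, against -4.39, -3.17 and -3.19 with all 18 cells. The part of cells 9 and 15 in the low levels of the other cells was not tested.

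Esam, B4galt4, Igsf8 and Ltbr stayed past the fold when cells 1, 9, 15 and 18 were left out. Esam, an adhesion protein of endothelium and of early blood progenitors, was above 1 TPM in 15 of 18 day-17 and 8 of 34 Gata2-low cells, with medians of 122 and 0 TPM, and its centred difference was -3.96 with all day-17 cells and -5.13 without cells 1, 9, 15 and 18. B4galt4, a galactosyltransferase, was above 1 TPM in 16 of 18 and 6 of 34 cells. Igsf8, a surface protein of the immunoglobulin family, and Ltbr, the lymphotoxin beta receptor, were both above 1 TPM in 18 of 18 and 11 of 34 cells, with centred differences of -3.22 and -3.07. Asns, the asparagine synthetase gene, had medians of 84.7 and 0.41 TPM and a centred difference of -3.22, while in Gata2-high cells its median was 81.8 TPM. Prtn3, a protease of the granulocyte lineage, stood at 1623 TPM in day-17 cell 1 and between 17.1 and 194 TPM in the 14 cells that did not stand apart, and was above 1 TPM in 11 of 34 Gata2-low cells.

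Rps4y2 had the largest fall, with a centred difference of -5.98. All 18 day-17 cells exceeded 1 TPM (2.54 to 522 TPM, median 265), as did 4 of 34 Gata2-low cells (0 to 180 TPM, median 0). In RefSeq the name is a synonym of Rps4l, a transcribed pseudogene on chromosome 6 related to the ribosomal protein gene Rps4x, so reads may be divided between them and its level is uncertain. Among Gata2-high cells 3 of 22 were above 1 TPM. Rps4y2, Mest, Esam and B4galt4 were compared through their detection at day 17, so their direction was nearly fixed.

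**Figure D4:**
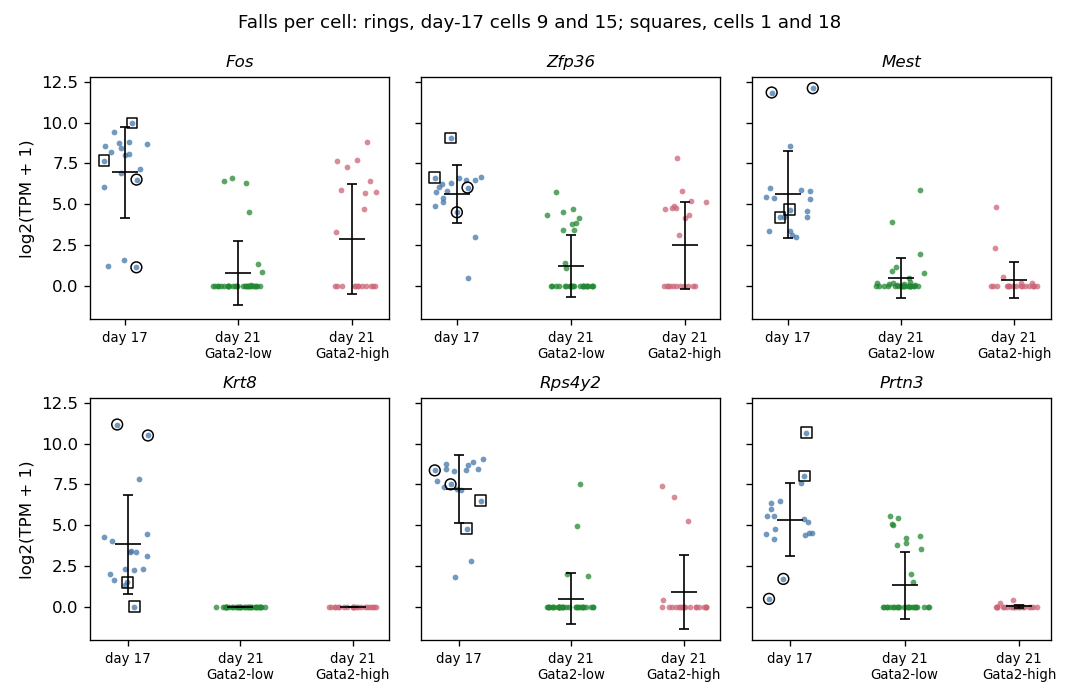
Level of 6 genes that were lower in Gata2-low cells on the log2(TPM + 1) scale (vertical axes) in 18 day-17, 34 Gata2-low and 22 Gata2-high cells (horizontal positions; points are cells, bars are mean and SD between cells). Rings mark day-17 cells 9 and 15, which are the highest for Mest and Krt8, and squares mark cells 1 and 18, which are the highest for Prtn3, while Fos, Zfp36 and Rps4y2 are high in most day-17 cells.

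Id2 and Id3, inhibitors of E proteins, differed between the groups in opposite directions. Id2, which is needed for natural killer and innate lymphoid cells, was above 1 TPM in 13 of 18 day-17 and all 34 Gata2-low cells, with means of 3.65 and 6.97 on the log2 scale and a centred difference of 4.08. In Gata2-high cells its mean was 9.70. Id3 was above 1 TPM in 18 of 18 and 3 of 34 cells, with means of 3.89 and 0.51 and a centred difference of -2.62. It stood at 1262 and 1298 TPM in day-17 cells 9 and 15 and at a median of 5.72 TPM in the 14 cells that did not stand apart. Cells 9 and 15 thus raised the day-17 mean of Id3. Its place past the fold rests in part on them and was not recomputed without them. Tcf3, the E protein gene E2A, had means of 7.46 and 5.27. Tox, a factor of T-cell and innate lymphoid development, was above 1 TPM in 2 of 18 and 22 of 34 cells. Of the list of 16 lymphoid factors 13 were compared. Id2 and Tox were past the fold as higher and Id3 as lower, where 1.26% and 1.49% of all genes were. Tox was compared through its detection in Gata2-low cells and Id3 through its detection at day 17. Their directions were nearly fixed, so the count cannot be read against those shares. Gata3 (means 3.31 and 4.28), Notch1 (3.54 and 3.39) and Ikzf1 (5.86 and 5.55), factors of early T-cell development, were not past the fold.

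Of 12 Notch target genes listed 9 were compared, 7 with a positive and 2 with a negative centred difference and a median of 0.62. Il2ra, the CD25 chain of the IL2 receptor, was past the fold, as higher (1.26% of all genes were), and was above 1 TPM in 1 of 18 and 18 of 34 cells. Il2ra was compared through its detection in Gata2-low cells, so its direction was nearly fixed. The centred differences were 1.49 for Ptcra and 0.90 for Dtx1, and -0.98 and -0.40 for Hes1 and Nrarp, the negative members. Of the 14 stem and progenitor factors 10 were compared and only Lmo2 was past the fold, as lower (1.49% of all genes were), from 3.16 to 0.36. The transgene factors Runx1 (7.32 and 6.71) and Hoxa9 (7.56 and 6.66) were not past the fold, and the table does not separate transgene from endogenous transcripts. The surface genes Cd34 (8.62 and 9.04) and Cd27 (7.80 and 8.23) were not past the fold either.

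Of the genes of other lineages only a part was detected widely enough to be compared. Over all genes compared, 1.26% were past the fold as higher and 1.49% as lower. Of 23 neutrophil and monocyte genes 11 were compared, Fcer1g and Fcgr3 were past the fold as higher and Prtn3 as lower, and Mpo, Elane, Lyz2, Csf3r and Cebpa were above 1 TPM in 0 of 34 Gata2-low cells. Of 9 B-lymphoid genes 1 was compared, Cd79b, which was past the fold as lower, and Ebf1 and Pax5 were above 1 TPM in no cell of either group. Of 12 innate lymphoid genes 4 were compared and Il17rb was past the fold as higher, while Klrg1 and Il23r were above 1 TPM in no cell of either group and Zbtb16 was above 1 TPM in 8 of 34 Gata2-low cells. The haemoglobin gene Hbb-b1 was above 1 TPM in 9 of 18 and 26 of 34 cells, while Klf1, an erythroid factor, was above 1 TPM in 1 of 34. Near-identical copies of this globin gene make its level uncertain. Of 10 stromal genes 2 were compared and none was past the fold, and Dcn, Lum and Col3a1 were above 1 TPM in no cell of either group.

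Growth and housekeeping lists differed little once centred. The means of the 23 cell cycle genes were 7.48 ± 0.50 at day 17 and 6.88 ± 1.003 in Gata2-low cells, a centred difference of 0.16 with no member past the fold. Over all genes compared, 1.26% were past the fold as higher and 1.49% as lower. Of 14 glycolysis genes, all of them compared, only the glucose transporter gene Slc2a1 was past the fold, as lower. Among 12 survival genes, 9 of them compared, it was Bcl2l1, also as lower. Among 19 interferon response genes, 18 of them compared, it was Ifi27l1, as higher. None of the 11 ribosome biogenesis genes, all of them compared, was past the fold. Nor was any of 10 antigen presentation (MHC class I) genes, 9 of them compared, or of 10 dendritic genes, 5 of them compared.

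**Figure D5:**
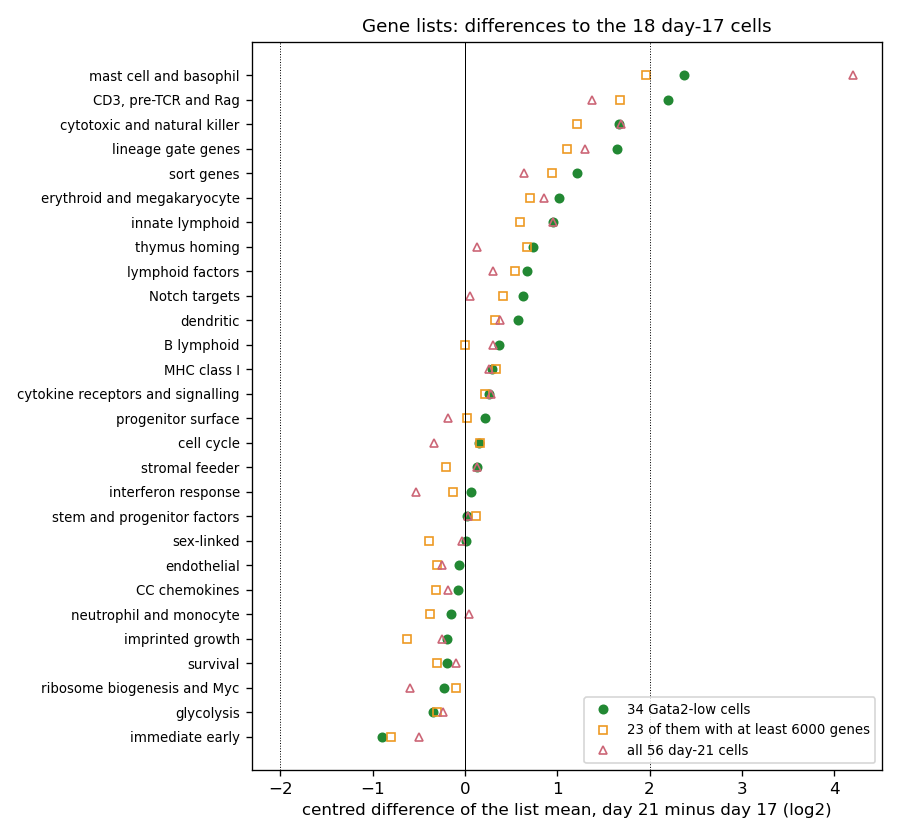
Centred difference of the list mean (day 21 minus day 17, log2, horizontal axis) for each gene list (vertical axis), with 34 Gata2-low cells, the 23 of them with at least 6000 genes, and all 56 day-21 cells. The mast cell list moved most between settings, from 2.37 with Gata2-low cells to 4.21 with all day-21 cells, and the CD3, pre-receptor and Rag list stood at 2.20, 1.68 and 1.38.

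Over the genes compared, the Gata2-low cells were closest to each other. Across the 9472 genes, each of the 34 cells correlated best with the mean of the other Gata2-low cells, with r from 0.663 to 0.870 (median 0.807). The median r was 0.780 with the day-17 mean, 0.751 with the day-14 mean and 0.749 with the Gata2-high mean. In 24 of the 34 cells r was higher with day 17 than with Gata2-high cells, which came from the same sort. The 9472 genes were chosen in day-17 and Gata2-low cells, so genes detected only in Gata2-high or day-14 cells were left out. The rule itself had also split off the Gata2-high cells. This order of likeness is therefore partly built in. These correlations run across genes that share library depth and length, and genes are not independent replicates. Of the 18 day-17 cells 15 correlated best with the other day-17 cells and 3 with the day-14 mean.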

How the data were processed

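Per the labels and the study's methods, single cells were amplified with the Discover-sc WTA Kit V2 and libraries prepared by the TruePrep kit (V2). The submitters' processing notes name bcl2fastq, HISAT2 2.1.0, StringTie 1.3.4 and SAMtools 0.1.19, with the genome build mm10. The gene annotation used by StringTie is not given in the sources used here, nor is any tagging of molecules. The sequencer differs between the labels and the methods. The authors deposited 1 table of TPM values for 23420 gene names in 160 cells. TPM values sum to nearly the same total in every cell and hold no read depth, and a long or abundant transcript in a cell lowers the share left to all others.

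Values were analysed as log2(TPM + 1). Genes that exceeded 1 TPM in over 10 of the 52 cells were compared by the difference of group means, less the median difference of all genes compared. A centred difference of 2 or more in size (4-fold on the TPM + 1 scale) counted as past the fold. A fold change on this scale understates the change of low genes. The labels give no replicate cultures or animals, so cells were not used as replicates and no p-value was computed. Shares of cells have exact Clopper-Pearson 95% intervals, and a count of 0 allows 3 cells of the total. Text names the 6 markers, Gata2, the 12 largest differences in each direction, the 12 largest rises with all day-21 cells, and members of 28 gene lists (333 of 337 listed genes are in the table). Other genes (Krt8, Tbp) were chosen after their values were seen, as was the search for E-boxes and TGACG. The cells to compare, the markers and the lists were chosen with earlier results of these data known, so no list is independent evidence. Gene positions are from GENCODE vM21 and promoter windows from RefSeq, both on GRCm38. The comparison step was tested on simulated data. These had normally distributed log levels, with shifts added only to well-expressed genes, so genes near 0 were not covered. Doublets were not called. Libraries came from cells sorted singly, and whether any held more than 1 cell was not tested. Python 3.11.15, numpy 2.4.6, pandas 2.3.3, scipy 1.17.1 and matplotlib 3.10.9 were used, with the alternatives of the closing section. Some list members are not reported here.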

Additional observations from a re-analysis of the deposited data

How the results depend on the processing

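The labels define no replicates, so values were recomputed under each alternative and compared with the spread between cells, and no paired analysis was possible because no test was made. Of 504 list values 472 moved by less than the SD between cells. With a pseudocount of 0.1, 437 genes were higher and 674 lower, and with 10 there were 23 and 6. The lists that moved with 0.1 and 10 were lineage gate genes (2.65 and 0.74), CD3, pre-TCR and Rag (3.40 and 1.08), cytotoxic and natural killer (2.50 and 0.86), innate lymphoid (1.56 and 0.40), mast cell and basophil (3.98 and 1.04) and erythroid and megakaryocyte (1.61 and 0.47). With no filter on low values 305 genes were lower, and the erythroid and B-lymphoid lists stood at 0.69 and 0.039. With medians over cells 1292 genes were lower and the B-lymphoid list stood at 0.030. With all day-21 cells 186 genes were higher, the mast cell list stood at 4.21, and the shares of day-21 cells above 1 TPM were 58.9% for Flt3 and Ccr9, 73.2% for Il7r, 50% for Tcf7 and 53.6% for Cd3g.

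With cells of at least 6000 genes, 18 at day 17 and 23 at day 21, the lineage gate, cytotoxic and B-lymphoid lists stood at 1.10, 1.22 and 0.00096, and Flt3 was above 1 TPM in 100% of the day-21 cells. At a threshold of 10 TPM the median number of genes per day-17 cell was 6566 and the share with Cd3g at day 17 was 0%. Requiring Il7r, or Il7r and Kit, above 1 TPM in both groups gave 100% for Il7r in both groups and for Flt3 at day 17, by construction for Il7r. Leaving out day-21 cells with any lineage gate gene above 1 TPM left only 2 cells, against which 234 genes were higher and 903 lower. In these 2 cells Cd3g, a gate gene itself, turned to -0.020, Ly6d to -0.039 and Lgals7 to -0.74. The lists stood at -0.018 (lineage gate), 0.71 (CD3, pre-TCR and Rag), -0.31 (lymphoid factors), 0.95 (cytotoxic), 0.40 (innate lymphoid), -0.14 (dendritic), 1.09 (mast cell), -0.093 (B lymphoid), -0.66 (endothelial), -0.30 (stromal feeder) and -0.58 (sex-linked). Flt3, Il7r, Ccr9, Tcf7 and Gzma were above 1 TPM in 100% and Cd3g in 0% of them. Requiring Gata2 and Cpa3 below 31 TPM left 1 cell and could not be fitted. The cause of these moves was not tested, beyond the fewer cells used.

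Among the alternatives added after the data were seen, leaving out the 4 day-17 cells that stood apart gave 115 higher and 140 lower genes, averaging cells 10 and 11 gave 121 and 141, and leaving out day-17 cells with a Y-linked gene gave 144 and 170, with the sex-linked list at 0.68. Setting values under 1% of a gene's highest level of the day to 0 gave 113 and 135, with the mast cell list at 1.13, which follows from the construction, since several of its genes lay below that level in every Gata2-low cell. The number of cells and the unknown depth limit every share and every level near 0.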

Other observations

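The 21 day-14 iHPCs, which entered neither group, give the levels at the earlier end of the culture. Il7r, Ccr9, Cpa3, Cd3g, Gzma and Ly6d were above 1 TPM in 0 of 21 day-14 cells, which allows a share of up to 14.3%. Flt3 was above 1 TPM in 17 of 21 (median 44 TPM), Tcf7 in 6 of 21 and Rag2 in 4 of 21. Of the genes that were lower in Gata2-low cells, Fos was above 1 TPM in 21 of 21 day-14 cells (median 605 TPM), and Rps4y2 and Zfp36 in 20 of 21 each (medians 286 and 142 TPM). Mest was above 1 TPM in 16 of 21 and Krt8 in 12 of 21, with highest values of 1995 and 621 TPM.

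Day-17 cells 10 and 11, the closest pair, were above or below 1 TPM alike in 96.5% of the genes compared. Their Il7r levels were 100.4 and 100.3 TPM, whereas Krt8 stood at 20.8 and 2.06 TPM and Mest at 62 and 9.09 TPM.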
